A study of Mus musculus with 5 samples.

Results

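A group of 10 genes that gastric and intestinal mucosa use to make secreted and mucus-associated proteins were followed through pancreatic tumours of KPPCN and KPPC mice. They were chosen by symbol: Tff1, Tff2, Gkn3, Ctse, Dmbt1, Lgals4, Agr2, Reg1, Reg3b and Reg3g. All 10 were listed in both genotypes' expression tables, among the 12579 genes that the tables share. None was used to cluster the cells.

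Single cells came from minced advanced tumours of mice 7 to 8 weeks old, after removal of dead cells and depletion of CD45-positive blood cells, and were sequenced as 3′ droplet libraries in which each RNA molecule carries a molecular identifier (UMI). The 2 KPPCN libraries, called KPPCN 1 and KPPCN 2, were compared with 3 KPPC libraries, called by their column codes KPPC C3, KPPC D3 and KPPC H2. The labels give 3 mice per genotype. The third KPPCN tumour was not analysed here. Genotypes are given by abbreviation only. In the usual meaning of these names, both groups lack Trp53 in cells of the pancreatic lineage, through a Pdx1-driven Cre, and KPPCN mice also lack Nsdhl, a sterol dehydrogenase of the cholesterol pathway.

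Trefoil factors and gastrokines are small secreted proteins of the stomach surface that protect and repair the mucus layer. Reg proteins are secreted C-type lectins. Acinar cells, the enzyme-making cells of the pancreas, release them during injury, and Reg3b and Reg3g kill or bind gut bacteria. Pancreatic precursor lesions are known to take on gastric features. The genes outside the Reg family therefore serve as markers of a well-differentiated, gastric-like tumour epithelium. The Reg genes are not specific to it, since their levels were far higher in acinar-like than in epithelial-like cells, as given below. Gkn3 and Dmbt1 were also higher in acinar-like cells in some libraries. Lower Reg levels alone are therefore not read as a loss of gastric-like features.

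The 3 Reg genes lie together on mouse chromosome 6, and the letters just before their starts show what the family shares. The windows of 100 bases before each start, from RefSeq on GRCm38.p6, are printed for the 3 Reg genes and, as a member with no such match, for Gkn3. Capitals mark TATAAA, the core promoter box. The windows are Reg1 at chr6:78425883-78425982 on the plus strand, Reg3b at chr6:78370785-78370884 on the plus strand, Reg3g at chr6:78468875-78468974 on the minus strand and Gkn3 at chr6:87388936-87389035 on the minus strand, each read 5′ to 3′ along its gene.
Reg1: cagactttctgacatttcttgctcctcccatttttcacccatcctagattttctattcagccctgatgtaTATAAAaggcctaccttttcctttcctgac
Reg3b: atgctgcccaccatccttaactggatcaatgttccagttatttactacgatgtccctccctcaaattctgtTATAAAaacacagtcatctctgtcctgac
Reg3g: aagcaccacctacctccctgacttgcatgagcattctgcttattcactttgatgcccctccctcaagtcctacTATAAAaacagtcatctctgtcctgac
Gkn3: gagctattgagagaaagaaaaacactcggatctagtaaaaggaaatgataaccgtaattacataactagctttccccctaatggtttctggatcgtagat

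TATAAA begins 30 bases before the start of Reg1, 29 bases before that of Reg3b and 27 bases before that of Reg3g. Over 27025 mouse promoter windows of the same length, searched on both strands, 5.95% hold it. Reg3b and Reg3g end in the same 20 bases, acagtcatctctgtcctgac, whereas Reg1 shares no run longer than 7 bases with either. The table held a window for 6 of the 10 genes, and those of Gkn3, Lgals4 and Agr2 held no TATAAA. None of the 6 windows held TGTTTAC (1.08% of promoters), AGATAA (3.63%) or TTCNNNGAA (2.6%), each 1 form of a forkhead, GATA or STAT site. Other forms of these sites were not searched, so the windows may hold them. The data hold no measurement at these promoters.

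Positions below are on GRCm38. Reg1 (chr6:78422711-78428667) and Reg3b (chr6:78370657-78373466) run on the plus strand with 49.2 kb between them, and Reg3g (chr6:78466269-78468872) runs on the minus strand 37.6 kb from Reg1. The longest identical stretch of transcript between Reg3b and Reg3g, 35 bases, is shorter than the 98-base reads. Gkn3 (chr6:87383256-87388935, minus) lies 3.8 kb from Gkn2 and 32.3 kb from Gkn1. Tff1 (chr17:31161395-31165277) and Tff2 (chr17:31141049-31144282) are neighbours on the minus strand, 17.1 kb apart. Ctse (chr1:131638306-131675505), Dmbt1 (chr7:131032053-131121630), Lgals4 (chr7:28833854-28841708) and Agr2 (chr12:35992907-36004087) run on the plus strand. All 10 are protein-coding.

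The analysed cells numbered 5377 and 2010 in the KPPCN libraries and 3774, 3278 and 2489 in the KPPC libraries. Median UMIs per cell were 2230 and 21789 in the KPPCN libraries, against 17355, 19024 and 17892 in the KPPC libraries, so KPPCN 1 was the shallowest per cell. It held many cells of blood-cell-like clusters, 1356 in the cluster led by Cd52 and Rac2 and 1076 in the cluster led by Fcmr and H2-Aa. In KPPCN 2, 72.29% of cells lay in clusters high in Cdkn2a and Hmga2. Any pair of libraries shared 0 to 6 cell barcodes. Nsdhl, the gene removed in KPPCN mice, had 32.18 and 33.63 counts per 1000000 UMIs (CPM, on scaled totals) in epithelial-like cells of the KPPCN libraries, against 30.22, 22.95 and 28.38 in those of the KPPC libraries. Reads at a 3′ end can lie outside a deleted part, and no source used here states which part was deleted. These values therefore do not check the genotype labels.

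Epithelial-like cells were the cells in which the gastric genes could be read. They expressed 11 of 11 epithelial markers, which summed to 17310 and 17560 CPM in the KPPCN libraries and 18500, 19440 and 21620 CPM in the KPPC libraries. There were 96 and 38 such cells in the KPPCN libraries, against 622, 918 and 724 in the KPPC libraries. As shares of cells these were 1.785 and 1.891% in the KPPCN libraries, against 16.48, 28.0 and 29.09% in the KPPC libraries. The small KPPCN numbers limit every epithelial value below, and the depletion of CD45-positive cells bears on the shares. In the text, CPM are UMIs of the gene per 1000000 UMIs of the class, and log2 differences are KPPCN minus KPPC on log2(CPM + 5) after trimmed-mean scaling of the totals. Adjusted p-values come from limma with Benjamini-Hochberg adjustment over all genes tested, at a threshold of 0.05.

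In epithelial-like cells, 5 of the 10 genes had both KPPCN libraries below all 3 KPPC libraries: Gkn3, Ctse, Reg1, Reg3b and Reg3g. Tff1, Tff2, Dmbt1, Lgals4 and Agr2 overlapped. Over all 12193 genes tested, 17.1% had both KPPCN libraries below, or 18.5% when genes listed at 0 throughout a KPPC library are not counted. Among the members 8 had a negative and 2 a positive log2 difference, with a median of −0.725, against a median of −0.000841 over all genes. No gene of the 12193 passed the threshold (0%), although 1263 had an unadjusted p under 0.05, so no member is called changed in these cells. Without KPPC H2, 4 genes passed, none of them a member.

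**Figure D1:**
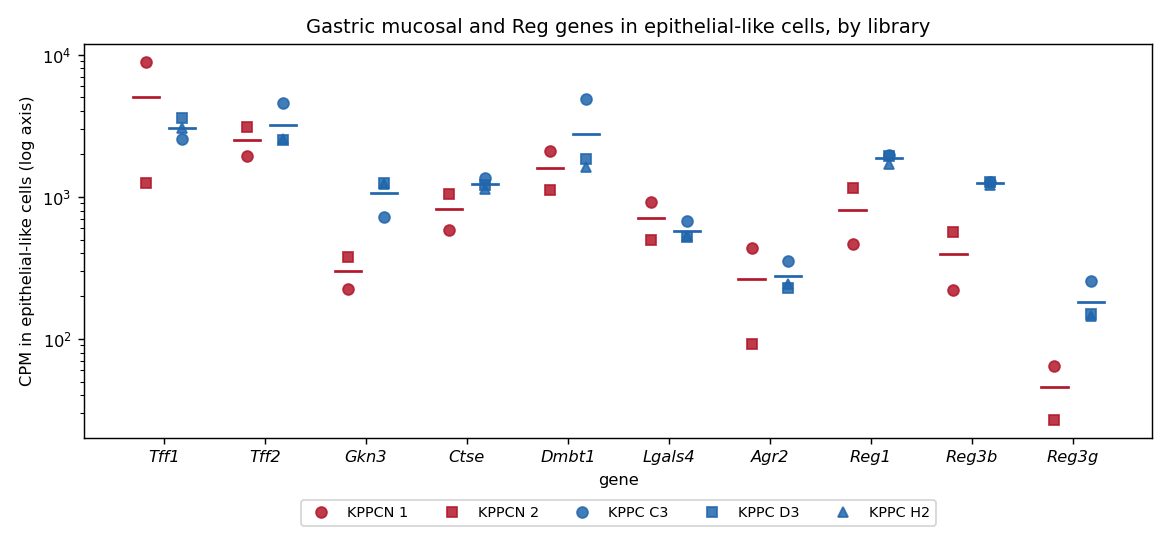
Each point is the CPM of 1 library in epithelial-like cells (log axis), with KPPCN libraries left of KPPC libraries for each gene and a line at each group's mean. Both KPPCN points of Gkn3, Ctse, Reg1, Reg3b and Reg3g sit below the 3 KPPC points, while the KPPCN points of Tff1 lie on either side of the KPPC points.

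Tff1, a trefoil factor of gastric surface mucous cells, varied most between the KPPCN tumours. It had 8879 and 1251 CPM in epithelial-like cells of KPPCN 1 and KPPCN 2, against 2544, 3566 and 3029 CPM in those of KPPC C3, D3 and H2. KPPCN 1 stood above and KPPCN 2 below every KPPC library. The means were 5065 ± 5394 CPM in KPPCN (SD, n = 2) and 3046 ± 511.2 CPM in KPPC (SD, n = 3). The log2 difference was 0.09 with a standard error of 0.75 (limma, adjusted p = 0.978), and its sign turned without KPPCN 1, at −1.39, and without KPPC C3, at −0.02. It was also negative after thinning cells to 1000 UMIs, at −0.40.

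Tff2, the trefoil factor of mucous neck cells, had 1947 and 3095 CPM in KPPCN epithelial-like cells, against 4590, 2497 and 2530 CPM in KPPC epithelial-like cells. KPPCN 2 lay among the KPPC values and KPPCN 1 below them. This gave a log2 difference of −0.38 with a standard error of 0.34 (limma, adjusted p = 0.707).

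Gkn3, a gastrokine of the mouse stomach, had 225.5 and 374 CPM in KPPCN epithelial-like cells, against 721.7, 1248 and 1232 CPM in KPPC epithelial-like cells. The groups did not overlap. The means were 299.8 ± 105 CPM in KPPCN (SD, n = 2) and 1067 ± 299.3 CPM in KPPC (SD, n = 3). The log2 difference of −1.88, with a standard error of 0.30, did not pass (limma, adjusted p = 0.407).

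Ctse, the aspartic protease cathepsin E, was the member spread most evenly over epithelial-like cells. It had 581.7 and 1046 CPM in KPPCN epithelial-like cells, against 1357, 1213 and 1132 CPM in KPPC epithelial-like cells, with no overlap. This gave a log2 difference of −0.72 with a standard error of 0.24 (limma, adjusted p = 0.444). The 10% of cells with the highest level held 33.41 and 43.24% of its UMIs in the KPPCN libraries, and 34.45, 31.05 and 30.19% in the KPPC libraries. For Tff1 the same 10% held 88.74 and 93.3% in the KPPCN libraries, and 92.16, 91.61 and 92.43% in the KPPC libraries.

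Dmbt1, a scavenger-receptor glycoprotein of mucosal secretions, had 2097 and 1109 CPM in KPPCN epithelial-like cells, against 4874, 1849 and 1620 CPM in KPPC epithelial-like cells. KPPC C3 stood above the other 4 libraries, among which the groups overlapped. Its log2 difference was −0.73 with a standard error of 0.53 (limma, adjusted p = 0.653). Lgals4, galectin-4 of gut epithelium, had 921.6 and 498.2 CPM in the KPPCN libraries, against 671.5, 518.8 and 531.6 CPM in the KPPC ones, so that the KPPCN values fell on either side of the KPPC values. For Lgals4 the log2 difference was 0.20 with a standard error of 0.30 (limma, adjusted p = 0.838), and without KPPCN 1 it was −0.31. Agr2, a disulfide isomerase that helps mucins fold, had 433.7 and 92.76 CPM in the KPPCN libraries, against 355.8, 226.6 and 244.6 CPM in the KPPC ones. KPPCN 1 was again the highest library and KPPCN 2 the lowest. For Agr2 the log2 difference was −0.42 with a standard error of 0.58 (limma, adjusted p = 0.825), and without KPPCN 2 it was 0.67. After thinning it was 0.26.

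The Reg genes were lower together in both KPPCN tumours, though none passed. Reg1, a secreted lectin made in quantity by acinar cells, had 466.4 and 1143 CPM in KPPCN epithelial-like cells, against 1965, 1920 and 1690 CPM in KPPC epithelial-like cells. For Reg1 the log2 difference was −1.40 with a standard error of 0.33 (limma, adjusted p = 0.434). Reg3b had 221.5 and 564 CPM in the KPPCN libraries, against 1277, 1273 and 1213 CPM in the KPPC ones. The KPPC libraries differed little among themselves, with a mean of 1254 ± 35.85 CPM (SD, n = 3), while the KPPCN libraries averaged 392.8 ± 242.2 CPM (SD, n = 2). The log2 difference of Reg3b was −1.88 with a standard error of 0.33 (limma, adjusted p = 0.434). Reg3g had 64.3 and 26.93 CPM in the KPPCN libraries, against 254.4, 149.5 and 145.1 CPM in the KPPC ones, and its log2 difference was −1.97 with a standard error of 0.40 (limma, adjusted p = 0.434). No KPPCN value of these 3 genes reached a KPPC value.

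A single barcode carried much of the KPPCN 2 epithelial signal of some members. This epithelial-like cell had 92957 UMIs, against a median of 13164.5 in the 38 cells, and held 1762 of their 1806 UMIs of the 7 measured acinar markers. It also held 1674 of 2069 Tff2 UMIs, 247 of 250 Gkn3 UMIs, 376 of 764 Reg1 UMIs and 215 of 377 Reg3b UMIs. For Tff1, Lgals4 and Agr2 it held 303 of 836, 115 of 333 and 25 of 62 UMIs. Its part was smaller for Ctse (91 of 699), Dmbt1 (80 of 741) and Reg3g (2 of 18), beside 13.91% of all UMIs of these cells. The acinar markers summed to 2702 CPM in epithelial-like cells of KPPCN 2 with that cell and to 76.46 CPM without it, beside 133.7 CPM in KPPCN 1 and 67.29, 75.73 and 184.3 CPM in the KPPC libraries. A doublet caller had not marked the barcode, but it detected only 2.501 to 24.652% of its own simulated doublets, so whether the barcode held 1 cell was not tested.

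With that cell left out, KPPCN 2 had 686.4 CPM of Tff2, 5.213 of Gkn3, 674.3 of Reg1 and 281.5 of Reg3b in epithelial-like cells. In an alternative chosen after seeing the data, the epithelial-like cell with the most acinar UMIs was left out of each of the 5 libraries. Tff2 then joined the members whose KPPCN libraries lay below every KPPC library, which made 6 of 10, where 17.8% of 12173 genes did. Reg3b was then the 1 gene of 12173 (0.00821%) that passed, at a log2 difference of −2.35 with a standard error of 0.14 (limma, adjusted p = 0.0143), and it fell in that comparison. Over all alternatives run, its adjusted p lay between 0.0143 and 0.756 (limma). In the same limma fit Reg1 was at −1.76 (adjusted p = 0.182), Gkn3 at −4.39 (adjusted p = 0.421) and Tff2 at −1.44 (adjusted p = 0.438). Tff1 was at −0.10.

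Dependence on 1 cell was not limited to that barcode. For each member, the cell with its highest count held 8.246 to 54.3% of the epithelial-like UMIs in KPPCN 1 and 18.17 to 98.8% in KPPCN 2, against 0.9572 to 16.59% in the KPPC libraries. In KPPCN 1 the top cells held 53.25% of Tff2, 54.3% of Gkn3, 52.0% of Agr2 and 34.36% of Tff1. KPPCN had fewer epithelial-like cells, so a single cell weighs more there.

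**Figure D2:**
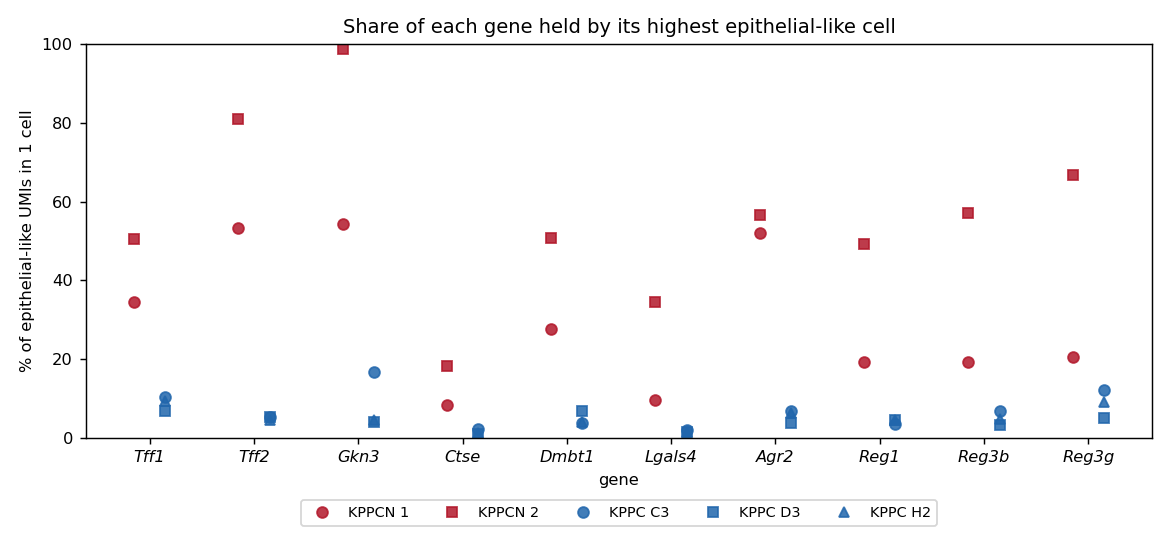
Each point is the share, in percent, of a gene's epithelial-like UMIs that sat in the single cell with most of them, by library, with KPPCN left of KPPC. The KPPC points stay at or below 16.59%, while KPPCN 2 reaches 98.8% for Gkn3 and 80.91% for Tff2.

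Shares of cells with a UMI do not weigh a single rich cell more than a poor one. Cells were thinned to 1000 UMIs each, which kept 94 and 37 epithelial-like cells of the KPPCN libraries and 615, 912 and 718 of the KPPC libraries. Reg1 was then seen in 15.96 and 10.81% of KPPCN cells, against 31.87, 27.19 and 22.01% of KPPC cells. The exact binomial 95% intervals, which cover counting error only, were 9.215 to 24.95% and 3.025 to 25.42% in KPPCN, against 28.2 to 35.71%, 24.33 to 30.21% and 19.03 to 25.22% in KPPC. Reg3b was seen in 11.7 and 13.51% of KPPCN cells, against 23.41, 25.11 and 17.13% of KPPC cells, and Gkn3 in 10.64 and 8.108%, against 18.05, 25.55 and 22.01%. Ctse, the most widespread member, was seen in 36.17 and 51.35% of KPPCN cells, against 56.91, 58.66 and 53.48% of KPPC cells, and Agr2 in 9.574 and 2.703%, against 14.47, 11.18 and 13.37%. For these 5 of the 10 genes both KPPCN shares lay below every KPPC share, as did 21.1% of the 12193 genes tested in these cells and 19% of the 2875 genes seen in at least 5% of cells on average.

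The shares of Tff1, Tff2, Dmbt1, Lgals4 and Reg3g overlapped between the genotypes. Tff1 was seen in 31.91 and 13.51% of KPPCN epithelial-like cells, against 19.84, 28.95 and 24.51% of KPPC cells, and Lgals4 in 45.74 and 24.32%, against 31.87, 28.29 and 27.44%. Reg3g was seen in 2.128 and 8.108% of KPPCN cells, against 12.03, 11.07 and 7.939% of KPPC cells. Without thinning, Ctse was seen in 78.12 and 71.05% of KPPCN cells and in 88.26, 91.94 and 90.61% of KPPC cells. In fibroblast-like cells, which should lack it, thinned Ctse shares were 0.4044 and 0% in KPPCN, where 0 of 267 cells allows up to 1.124%, and 2.396, 1.902 and 1.257% in KPPC.

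The epithelial-like class was made of 2 clusters, and the members were unevenly divided between them. One, led by Prap1 and Gkn1, had 66 and 18 cells in the KPPCN libraries and 388, 452 and 390 in the KPPC libraries. The other, led by 2310007B03Rik and Tph1, had 30 and 20 cells in the KPPCN libraries and 234, 466 and 334 in the KPPC libraries. Tff1 reached 12660 and 3027 CPM in KPPCN cells of the Prap1 and Gkn1 cluster, and 3920, 7071 and 5602 CPM in KPPC cells of that cluster. In the other cluster it had 280.7 and 0 CPM in KPPCN cells, where a count of 0 allows up to 7.649 CPM, and 92.5, 268.5 and 150.7 CPM in KPPC cells.

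Ctse was the exception to this division. In the Prap1 and Gkn1 cluster it had 715.5 and 1513 CPM in KPPCN cells, and 1740, 1493 and 1359 CPM in KPPC cells. In the Tph1-led cluster it still had 277.4 and 716.5 CPM in KPPCN cells, and 675.8, 949.6 and 877.8 CPM in KPPC cells. No test is given between clusters, since the cells were clustered on their expression.

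Within the Prap1 and Gkn1 cluster, Reg3b had 315.9 and 1350 CPM in KPPCN cells, against 1869, 2501 and 2113 CPM in KPPC cells. These KPPCN 2 counts include the single barcode described above. In the Tph1-led cluster Reg3b had 6.684 and 10.2 CPM in KPPCN cells, against 220.6, 117.9 and 205.7 CPM in KPPC cells. The KPPCN values there rest on 2 and 4 UMIs and are near the 7.199 and 10.48 CPM that fibroblast-like cells had in KPPCN 1 and KPPCN 2, against 27.45, 18.71 and 29.56 CPM in the KPPC ones. Among thinned cells of the Prap1 and Gkn1 cluster, 25.0 and 29.41% of KPPCN cells carried 5 or more of the 10 genes, against 45.03, 52.47 and 43.9% of KPPC cells.

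Acinar-like cells, few in every library, were the other main source. There were 8 and 12 of them in the KPPCN libraries, and 29, 6 and 78 in the KPPC libraries, too few for a test in 3 of 5 libraries. Reg1 had 32330 and 36200 CPM in KPPCN acinar-like cells, against 34820, 29440 and 24990 CPM in KPPC acinar-like cells. Reg3b had 18040 and 31820 CPM in the KPPCN libraries, against 23090, 12440 and 24510 CPM in the KPPC ones. Both Reg1 and Reg3b were highest in KPPCN 2, while their KPPCN 1 values lay within the KPPC range.

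Reg3g, by contrast, had 2317 and 3517 CPM in KPPCN acinar-like cells, above 1313, 844.7 and 1494 CPM in those of KPPC, with 109 UMIs behind the first value. Gkn3 was uneven in these cells. It had 0 and 5333 CPM in KPPCN acinar-like cells, where a count of 0 allows up to 63.76 CPM, against 5699, 1678 and 1249 CPM in KPPC acinar-like cells. Dmbt1 had 3762 and 3472 CPM in KPPCN acinar-like cells, and 2715, 7039 and 1392 CPM in those of KPPC. Tff2 had 1529 and 935.3 CPM in acinar-like cells of KPPC C3 and H2, the libraries with at least 20 such cells. Among Tff1, Ctse, Lgals4 and Agr2 the highest value in acinar-like cells was 692.3 CPM, for Ctse in KPPC H2.

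**Figure D3:**
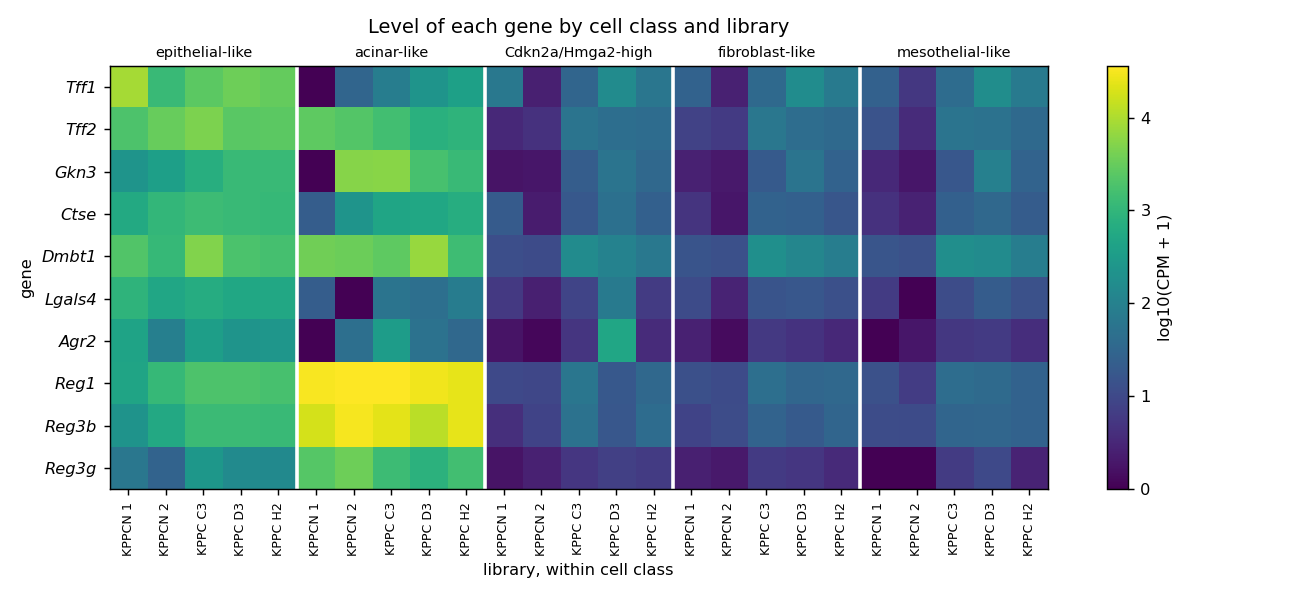
Colour gives log10(CPM + 1) of each gene (rows) in each library (columns, KPPCN first) within 5 cell classes. Reg1 and Reg3b are brightest in acinar-like cells, Tff1 in epithelial-like cells, and fibroblast-like and mesothelial-like columns are dark but not empty in the KPPC libraries.

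The 2 sources divided the Reg genes' UMIs differently from tumour to tumour. Acinar-like cells held 65.5 and 85.82% of all Reg1 UMIs in the KPPCN libraries, against 46.84, 9.082 and 63.27% in the KPPC libraries. For Reg3b they held 66.75 and 89.09% in KPPCN, against 47.26, 5.989 and 70.14% in KPPC. KPPC D3, with 6 acinar-like cells, had most of its Reg UMIs in epithelial-like cells, 86.18% for Reg1 and 89.18% for Reg3b. Tff1 had 91.74 and 90.77% of its UMIs in epithelial-like cells in the KPPCN libraries, and 94.25, 91.35 and 94.11% in the KPPC libraries, so its source did not vary in this way.

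**Figure D4:**
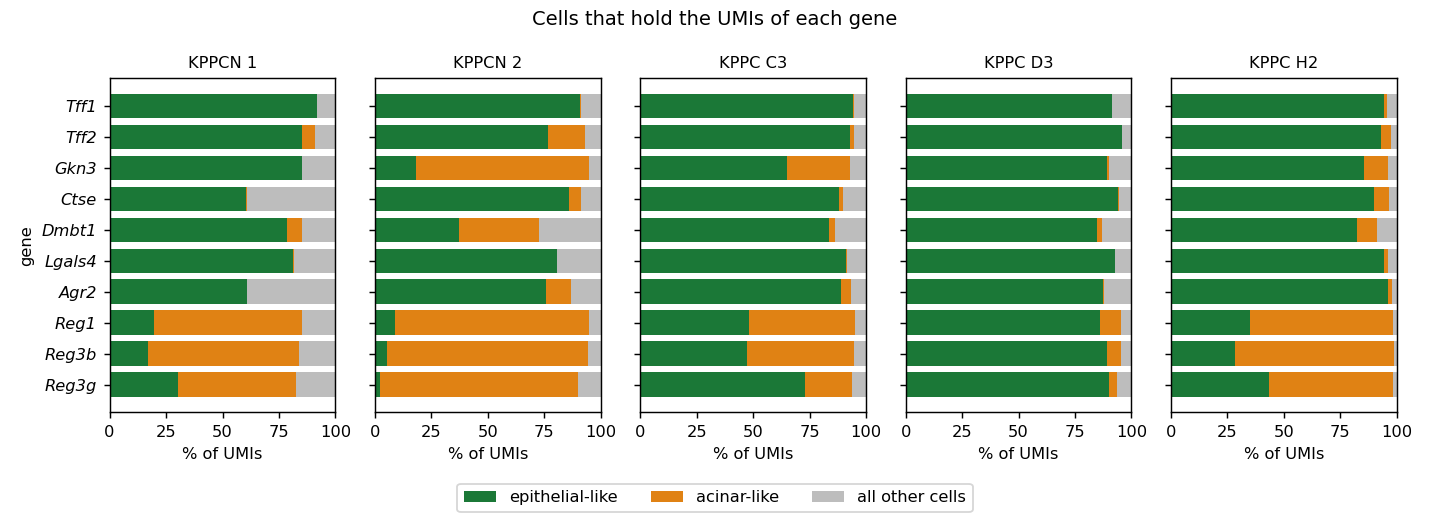
Bars give the percent of each gene's UMIs in a library that came from epithelial-like, acinar-like and all other cells, with the KPPCN libraries at the left. Acinar-like cells hold over 60% of Reg1 and Reg3b in both KPPCN libraries and in KPPC H2, and under 10% in KPPC D3.

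Some members were also counted in other clusters. In KPPCN 1 the cluster led by Ins2 and Ins1 (255 cells) held 34.48% of the library's Agr2 UMIs, 240 UMIs in 10 cells, and 26.04% of its Ctse UMIs, 245 UMIs in 58 cells. This cluster scored best on endocrine markers but was left unnamed, since Cdkn2a (995.1 CPM) and Hmga2 (731.2 CPM) were raised in it. Its leading genes included Prl2c3, Dynap, Cst6 and Klk8, which also led a Cdkn2a and Hmga2-high cluster. The level of Ctse in that cluster was 57.23 CPM in KPPCN 1, against 33.57, 105.4 and 109.6 CPM in the KPPC libraries, where fibroblast-like cells had 3.771 CPM in KPPCN 1, against 26.17, 23.95 and 15.81 CPM in the KPPC libraries. KPPCN 2 had 6 cells there, with 2 Ctse UMIs. In KPPC D3, 550 Agr2 UMIs sat in 2 of 37 Cdkn2a and Hmga2-high cells. Erythroid-like cells were found mostly in KPPC C3 (67 cells), where Ctse reached 917.8 CPM and 58.21% of thinned cells carried a UMI. In KPPC D3, 81 shallow cells of a cluster led by Krt14 and Lgals7, with a median of 1021 UMIs, had 2804 CPM of Tff1 and 3794 CPM of Dmbt1.

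RNA of these genes was also counted in cells that should lack them. In fibroblast-like cells Tff1 had 26.31 and 1.626 CPM in the KPPCN libraries, against 35.12, 162.4 and 73.1 CPM in the KPPC ones. Dmbt1 had 14.23 and 11.93 CPM in KPPCN fibroblast-like cells, against 181.8, 123.8 and 84.54 CPM in those of KPPC. All 10 members were lower in both KPPCN libraries than in every KPPC library in fibroblast-like cells, where 12.3% of genes were (13.3% without genes listed at 0 throughout a KPPC library).

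Relative to the same library's epithelial-like cells, the fibroblast-like level of the median member was 0.7003 and 0.3761% in KPPCN, against 2.023, 2.39 and 2.053% in KPPC. In endothelial-like cells it was 0.7672% in KPPCN 2, against 5.431, 8.052 and 2.686% in KPPC C3, D3 and H2. KPPCN 1 had only 6 endothelial-like cells and is left out there. No member passed in fibroblast-like cells: log2 differences ran from −0.49 for Reg3g to −2.86 for Dmbt1, with adjusted p-values of 0.171 to 0.587 (limma). None of 12101 genes did (0%), and 1009 had an unadjusted p under 0.05. Reg3g had 1.543 and 1.084 CPM in the KPPCN libraries, against 4.909, 4.196 and 2.543 CPM in the KPPC ones. For levels this low, the 5 CPM added before taking logs shrinks the log2 difference. Without KPPC C3, 9 of 11824 genes passed (0.0761%), among them Dmbt1 (−2.58) and Tff2 (−2.03), which fell in that fit, and without KPPC H2, 2 did. The class drew on different clusters in the 2 genotypes, since 1284 and 459 of 2106 fibroblast-like cells of KPPCN 1 came from clusters 1 and 11, which held at most 7 cells of any KPPC library. Epithelial markers summed to 250.5 and 105.9 CPM in KPPCN fibroblast-like cells and to 384.9, 447.1 and 286.3 CPM in KPPC ones. Their part in the difference was not tested.

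Tff1 levels are given for 4 other cell classes of each library, in the order fibroblast-like cells, mesothelial-like cells, the cluster led by Cxcl13 and Saa3 and that led by Pgf and Ndufa4l2. In KPPCN 1 they were 26.31, 24.71, 17.37 and 17.05 CPM. In KPPCN 2 they were 1.626, 4.467, 0 and 1.099 CPM, from 0 to 9 UMIs each, where the count of 0 allows up to 3.3 CPM. In KPPC C3 the same 4 values were 35.12, 40.41, 34.47 and 31.37 CPM. In KPPC D3 they were 162.4, 174.1, 157.7 and 175.1 CPM, and in KPPC H2 they were 73.1, 70.98, 66.64 and 55.22 CPM. The 3 KPPC libraries did not overlap with one another in these values.

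Without thinning, 13.11 and 3.358% of KPPCN fibroblast-like cells had a Tff1 UMI, against 45.61, 86.29 and 66.94% of KPPC ones, and in epithelial-like cells 51.04 and 15.79% of KPPCN cells did, against 61.25, 91.83 and 79.42% of KPPC cells. In KPPC D3 a Tff1 UMI was therefore nearly as common in fibroblast-like as in epithelial-like cells. After thinning to 1000 UMIs the fibroblast-like shares were 3.589 and 0% in KPPCN, where 0 of 267 cells allows up to 1.124%, against 3.044, 12.5 and 6.983% in KPPC.

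Whether a member's genotype difference was unlike in the 2 classes was tested on the within-library difference between epithelial-like and fibroblast-like log values. None of the 10 passed, nor did any other of 11760 genes (0%), although 1232 had an unadjusted p under 0.05. The lowest adjusted p was 0.325, for Dmbt1, at a log2 value of 2.12 (limma).

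Over all cells of the suspension, every member was lower in both KPPCN libraries than in all 3 KPPC libraries, as were 17.6% of 12556 genes (19.4% without those listed at 0 throughout a KPPC library). Fewer cells of a type and less RNA per cell cannot be told apart in such sums, and epithelial-like cells made up 1.785 and 1.891% of KPPCN cells against 16.48 to 29.09% of KPPC cells. Tff2 had 82.46 and 51.14 CPM in all KPPCN cells, against 916.8, 873.7 and 882 CPM in all KPPC cells. Its log2 difference of −3.67, with a standard error of 0.24, had an adjusted p of 0.0503 (limma), just outside the threshold. Tff1 had 349.2 and 17.44 CPM in the KPPCN libraries, against 501.2, 1308 and 1044 CPM in the KPPC ones, and its log2 difference was −3.31 with a standard error of 1.19 (limma, adjusted p = 0.284).

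Log2 differences of the 10 genes over all cells ran from −2.29 for Reg3g to −4.08 for Gkn3. A single gene of 12556 was called (0.00796%), and it was no member: Kcne3, a potassium channel subunit, with 2.297 and 1.932 scaled CPM in KPPCN and 31.27, 33.12 and 29.28 in KPPC (log2 difference −2.35, standard error 0.12, limma, adjusted p = 0.0432). In this fit 2048 genes had an unadjusted p under 0.05. The tables list 1166 of the shared genes at 0 throughout at least 1 KPPC library, none of them a member. When these were left out, in an alternative chosen after seeing the data, 123 of 11413 genes (1.08%) passed. In that limma fit Tff2 (log2 difference −3.68, adjusted p = 0.0302), Ctse (−3.73, adjusted p = 0.0425), Gkn3 (−4.09, adjusted p = 0.0446), Dmbt1 (−3.62, adjusted p = 0.0488) and Reg1 (−2.99, adjusted p = 0.0495) were among them and fell in that comparison. Leaving out KPPCN 1 gave 3306 calls of 12579 genes (26.3%), 9 of them members (all but Reg3b), and leaving out KPPCN 2 gave 118 (0.938%), with Tff2, Ctse and Agr2 among them. These last 2 fits each have 1 KPPCN library, which is assumed to vary like the KPPC libraries. Leaving out KPPC C3 or KPPC D3 gave 0.

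Members were correlated from cell to cell within KPPC tumours. Across epithelial-like cells of a library, Reg1 and Reg3b had a Pearson r of 0.83 to 0.856 over the 3 KPPC libraries, with a mean of 0.846, and the mean was 0.738 for Reg3b with Reg3g and 0.713 for Reg1 with Reg3g. Among the gastric genes the highest means were 0.684 for Tff2 with Gkn3 and 0.664 for Tff2 with Lgals4. Tff1 had its lowest means with the Reg genes, at 0.012 with Reg3g, 0.049 with Reg3b and 0.154 with Reg1. These cells share library, depth and the division into 2 clusters, so the values are a description. The median r of each member with all other genes lay between −0.027 and 0.

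**Figure D5:**
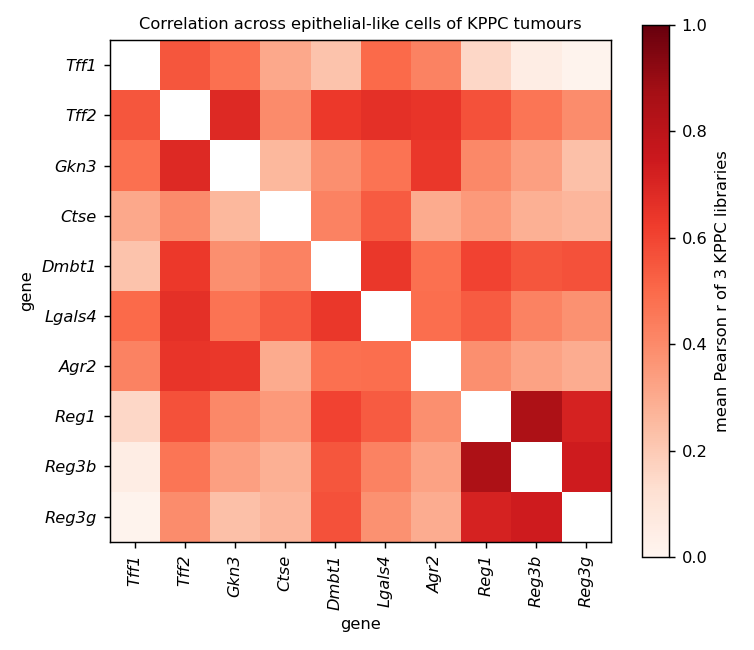
Colour gives the mean Pearson r, over 3 KPPC libraries, of log-normalised values across epithelial-like cells for each pair of genes. The 3 Reg genes form a block above 0.7, and the Tff1 row is palest against Reg3b and Reg3g.

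Outside the 10, the genes whose pattern over epithelial-like cells was most like a member's were often leaders of the Prap1 and Gkn1 cluster. Likeness was the mean Pearson r over the 3 KPPC libraries, among 10922 genes. Tff1 was closest to Gkn1, another gastrokine (0.743), and to Phgr1 (0.626). Lgals4 and Tff2 were closest to Gsta4, a glutathione transferase (0.759 and 0.651), with Phgr1 (0.66) next for Lgals4 and Smim6 (0.618) next for Tff2. Gkn3 was closest to Gpx2 (0.561), a glutathione peroxidase, and Fxyd3 (0.532). Dmbt1 and Agr2 were closest to Pglyrp1, a peptidoglycan recognition protein (0.657 and 0.556), followed by Prom1 (0.62) and Kcne3 (0.554).

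Ctse stood nearest to Clu (0.549) and Muc1 (0.529), a membrane mucin. Reg1 stood nearest to Gsta4 (0.507) and Prom1 (0.502), Reg3b to Kcne3 (0.468) and Tmem45a (0.461), and Reg3g to Lrg1 (0.481) and Selenop (0.425). The Reg genes thus had higher values with one another than with any gene outside the 10.

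Other genes of the gastric program were mixed in epithelial-like cells, and none of their lists held a called gene. Of 20 further gastric mucosal genes, 17 were in both tables, 8 with a positive and 9 with a negative log2 difference, with a median of −0.127. Below all KPPC libraries lay 2, and 2 lay above them, against 17.1% and 15.8% of all genes. Muc6, the gel-forming mucin of gastric glands, had 7.144 and 0 CPM in KPPCN, from 7 and 0 UMIs, where a count of 0 allows up to 4.488 CPM, against 64.21, 38.5 and 40.2 CPM in KPPC (log2 difference −2.67, standard error 0.41, limma, adjusted p = 0.386). Gkn2 had 231.7 and 4.488 CPM in the KPPCN libraries, against 114, 133.9 and 64.32 CPM in the KPPC ones, with a log2 difference of −1.01. Aqp5, a water channel, was at −1.34 on the log2 scale, and Psca, which is listed at 0 in KPPC C3, at 1.00.

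Of 14 secretory and goblet cell genes 11 were in both tables, 7 with a positive and 4 with a negative difference and a median of 0.087. Lgals2, galectin-2, had 279.6 and 149.6 CPM in KPPCN, above 79.29, 60.81 and 28.32 CPM in KPPC (log2 difference 1.87, standard error 0.52, limma, adjusted p = 0.434). Clca1, a goblet cell secreted protein, had 345 and 0 UMIs in KPPCN and 0, 81 and 0 in KPPC, where it is listed at 0 throughout KPPC C3 and H2 (log2 difference 3.23, limma, adjusted p = 0.470). Fcgbp, listed at 0 in KPPC H2, was at 1.08 and Ern2 at −0.78.

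Genes that act upstream of Reg3 genes were not called. Of 11 cytokine receptor and STAT3 genes, 10 were in both tables, 3 with a positive and 7 with a negative difference and a median of −0.0513. Tyk2, a Janus kinase, had 19.39 and 19.45 CPM in the KPPCN libraries, against 9.786, 8.371 and 10.35 CPM in the KPPC ones, with a log2 difference of 0.72 (limma, adjusted p = 0.434). Jak2 was at −0.51, Il6st at 0.39 and Socs3, a STAT3 target, at −0.35. A p above the threshold does not show that they were equal.

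All 16 foregut transcription factors were in both tables, 5 with a positive and 11 with a negative difference and a median of −0.123. Sox9, a ductal regulator, was at −0.56. Hnf4g (1.06) is listed at 0 throughout KPPC C3 and H2, and Foxa1 (−0.72) throughout KPPC C3. These zeros entered the fit as 0 CPM, so both differences depend on them. Of the remaining Reg family, Reg2 had 4.082 and 28.43 CPM in KPPCN and 3.753, 0 and 4.507 CPM in KPPC (log2 difference 1.08, limma, adjusted p = 0.574). Reg2 is listed at 0 throughout KPPC D3, and its KPPCN 2 value comes from cells that include the acinar-rich barcode described above. Extl3, a proposed receptor of Reg proteins, was at −0.06. Reg3a, Reg3d and Reg4 are listed in the KPPCN table alone. Reg3a had 181 and 1068 UMIs over all KPPCN cells, of which 1 and 0 were in epithelial-like cells.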

How the data were processed

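Per the labels, tumours were dissociated and sequenced as 10x Genomics 3′ V3 libraries, loading about 6000 cells each, with 98-base reads. The build was GRCm38, and Seurat 3.0.2, R 3.5.1 and Cell Ranger 2.1.0 are the tools listed, per the submitters' processing notes, with no order or role given. The authors deposited natural log values, ln(1 + UMIs per 10000 UMIs of the cell), per the values themselves, since every cell sums to 10000 after inversion. UMIs were recovered from the smallest step of each cell, and 100% of values came out whole within 0.01. The 12579 genes of the KPPC table were all in the 31053-gene KPPCN table. They hold 98.92 and 99.56% of KPPCN UMIs. The KPPC table appears filtered: its barcodes have 503 or more genes, and a gene listed above 0 in a KPPC library has a UMI in at least 37 barcodes there, while 1166 shared genes are listed at 0 throughout 1 or more KPPC libraries.

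Barcodes under 500 genes or over 20% mitochondrial UMIs were dropped, and 16928 cells were used after doublets were removed. Cells used summed to 27449489 and 53046127 UMIs in the KPPCN libraries and 80354297, 75551147 and 50591482 in the KPPC libraries. A doublet caller (scrublet, within scanpy 1.11.5) marked 1 and 8 KPPCN cells and 3, 4 and 26 KPPC cells, which were left out. It marked so few in 4 libraries that it cannot be said to have worked.

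Cells were clustered without the 10 genes among 2000 variable genes (30 components, 20 neighbours, Leiden resolution 1, 26 clusters, leidenalg 0.10.2). Clusters were called X-like from fixed markers: a score of at least 0.25, a lead of 0.1 and 3 or more markers raised 2-fold, a rule set after the clusters were seen. T-cell, B-cell, neutrophil, Schwann and mast lists had fewer than 3 markers in the KPPC table, so such clusters are called by their leading genes. The macrophage list had 3 markers. The clusters led by Igha and Igkc and by S100a9 and S100a8 scored best on it. They were left unnamed because a leading gene of each belongs to another list. Shares of cells were compared after thinning to 1000 UMIs, with 644 cells too shallow. UMIs were summed per library and class of at least 20 cells and tested with limma 3.58.1 (R 4.3.3) on log2(CPM + 5), for genes with 10 UMIs at the median total in at least as many libraries as the smaller group has and 15 in all. Precision weights, a trend and Benjamini-Hochberg adjustment over all genes at 0.05 were used. The steps were tested on simulated data.

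Genes named are the 10, the 2 most alike outside them, and up to 4 of each list with the largest log2 differences. The 10 genes, the lists and the tests were chosen with earlier results of these data known. Libraries were read as separate mice, since the labels give 3 mice per genotype, and p-values measure only the spread between these 5 libraries. Intervals and limits from counts of 0 cover counting error only. Some items of the genotypes and of the gene lists are not reported here.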

Additional observations from a re-analysis of the deposited data

Results flagged for a closer look

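Zg16, a secreted lectin of acinar and goblet cells, is listed in the KPPCN table alone and so entered no comparison. It had 7 UMIs in KPPCN epithelial-like cells, 6 in KPPCN 1 and 1 in KPPCN 2, against the 3 UMIs that a count of 0 allows over the group. These are 6.102 and 1.491 CPM, beside 6.91 and 0.7209 CPM in fibroblast-like cells and 22.99 and 9.709 CPM over all cells of the same libraries, so they are not read as expression in epithelial-like cells.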

How the results depend on the processing

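No paired analysis was possible because the KPPC columns carry the codes C3, D3 and H2 and no replicate number, although the labels say that tumours of a replicate were processed in parallel. The alternatives that leave out acinar-rich cells or genes listed at 0 were chosen after seeing the data. In epithelial-like cells, where no gene was called, 6 of 7490 genes tested were called after thinning each cell to 1000 UMIs. Among them were Gkn3 (log2 −3.09) and Reg3b (−1.58, both limma adjusted p = 0.038), with a median over all genes of −0.267. The thinned KPPCN sums rest on 94 and 37 cells. Without the cell with most acinar UMIs in each library 1 was called, and leaving out 1 library gave 0 to 4, the 4 without KPPC H2. The Tff1 difference reversed after thinning (−0.398), at resolution 2 (−0.237), without the acinar-rich cells (−0.104) and with Cdkn2a and Hmga2-high cells added (−3.13). Lgals4 reversed at resolution 2 (−0.0590) and with the added cells (−2.83). Agr2 reversed after thinning (0.264), with the members used in clustering (0.688) and at resolution 0.5 (0.343). The last 2 leave 1 KPPCN library with 20 or more cells, and that lone library is assumed to vary like the others. Leaving out 1 library gave −1.39 to 1.55 for Tff1 (reversed without KPPCN 1 and KPPC C3), −0.309 to 0.685 for Lgals4 and −1.60 to 0.671 for Agr2. The other 7 members kept a negative difference there under every alternative run.

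Over all cells, where 1 gene was called, 4 were with a pseudocount of 1 CPM, 0 with 20 CPM and 3 without trimmed-mean scaling, each of 12556 genes. After thinning 101 of 11747 were called, and without genes listed at 0 throughout a KPPC library 123 of 11413. Leaving out 1 library gave 0 (without KPPC C3 or D3) to 3306 (without KPPCN 1), with 118 without KPPCN 2. Tff2 passed in 6 of these fits, at limma adjusted p-values of 0.0444 (pseudocount 1), 0.0377 (no scaling), 0.00686 (thinned), 0.0302 (genes at 0 left out), 0.00935 (without KPPCN 1) and 0.0213 (without KPPCN 2), within a range of 0.00686 to 0.287 over all alternatives. In fibroblast-like cells, where no gene was called, 9 of 7694 were after thinning. Leaving out 1 KPPC library gave 0 to 9, the 9 of 11824 without KPPC C3 and 2 of 11912 without KPPC H2. Dmbt1 was among them after thinning (−3.08, limma adjusted p = 0.00892) and without KPPC C3 (−2.58, adjusted p = 0.032), as was Tff2 without KPPC C3 (−2.03, adjusted p = 0.0409). No member reversed over all cells or in fibroblast-like cells. The causes were not tested. Depth limits the KPPCN epithelial values, which rest on 96 and 38 cells.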

Other observations

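Further genes of the lists had values in the KPPCN libraries alone, where the KPPC table holds no row. Reg3d, a neighbour of Reg3b, had 29 and 91 UMIs over all KPPCN cells, and none in epithelial-like cells. Muc2, the gel-forming mucin of goblet cells, had 18 and 54 UMIs over all KPPCN cells, with 1 and 0 in epithelial-like cells. Il22ra1, a subunit of the interleukin-22 receptor, had 10 and 2 UMIs, and Reg4 had 0 and 3. Reg3a lay mostly outside epithelial-like cells, as its counts above show.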
